A study of Canis lupus familiaris with 16 samples.

Results

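The 4 genes described here, out of 24580 in the deposited table, are MYH11, SYNPO2, NOTCH3 and an actin entry written ACTC, which vascular smooth muscle cells and pericytes use. They were chosen by their expression in these same libraries, from the study's list of genes underexpressed in canine meningioma, so their difference between the groups is a description here and was not tested. RNAseq was performed on 13 canine meningiomas and on the normal leptomeninges of 3 healthy research beagles. By their labels, 6 of the tumors were grade I (5 transitional and 1 meningothelial) and 7 were grade II and atypical. The tumors were surgical biopsies from dogs of several breeds and from several sites of the brain and spinal column, the control tissue lay over the cerebral cortex, and the labels give no ages. The study gives the age and sex of each tumor dog but not of the controls, so neither could be compared between the groups. The labels describe every tumor as formalin-fixed and paraffin-embedded, the study's methods name a frozen pair, and the controls were all frozen and extracted with another kit, so that fixation, extraction, breed, site and disease cannot be told apart in most of the comparison. The table numbers the meningioma libraries 0 to 12 and the controls 0 to 2. The labels do not tie these numbers to tumors, so no test by grade or fixation was made.

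Mural cells wrap the vessels that run through the leptomeninges. In arteries and arterioles they are smooth muscle cells, which contract by pulling filaments of smooth muscle actin with smooth muscle myosin, and in capillaries they are pericytes, which hold less of this machinery. Both carry the receptor NOTCH3, which is activated by ligands on the neighbouring endothelial cell and which keeps arterial smooth muscle in its mature state. MYH11 codes for the heavy chain of smooth muscle myosin and SYNPO2 for an actin-binding protein of muscle. The ACTC entry carries the description of smooth muscle alpha actin. These 3 genes are called contractile genes below.

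The identifiers were ENSCAFG00000018560 for MYH11, ENSCAFG00000015708 for the ACTC entry, ENSCAFG00000012424 for SYNPO2 and ENSCAFG00000016107 for NOTCH3. The name ACTC usually stands for cardiac actin and the description given with it for ACTA2, and RefSeq lists ACTA2, ACTC1, ACTA1 and ACTG2 as separate dog genes without tying any of them to this identifier. Which actin the entry counts was therefore not settled, and near-identical actin genes can share reads. Fragment numbers of the 4 genes were whole in every library, while 161 genes of the table had values that were not. In RefSeq's annotation of another dog assembly (UU_Cfam_GSD_1.0) MYH11 overlaps NDE1. The libraries were made with a directional kit and aligned as such, but the strand setting of the counting is not given in the sources used here. Of the smooth muscle markers fixed for a check of the label, MYH11 is the one that the study's lists pair with an identifier by its own symbol, and TAGLN, CNN1, LMOD1 and MYL9 were not analysed here.

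Between 2138741 and 7358925 fragments per meningioma library fell on genes, and 2269204 to 7054614 per control. Meningioma libraries 2 and 12 stood apart from the rest on the third principal component of log2(FPKM + 1), with scores of -70.3 and -67.5 against -14.9 to 34.9 in all other libraries, and values that rest on them are given with and without them. By the per-sample FPKM that the study printed for its qPCR genes, which the table's values equal after rounding, this pair is its frozen tumors, so that these libraries also differed from the other tumors in fixation and extraction. The part that fixation had in their position was not tested. By that match, values without them are those of the formalin-fixed tumors alone. FPKM is the number of fragments scaled for transcript length and library size, so that genes can be compared with each other on it. Bulk RNA cannot tell fewer mural cells from less RNA per mural cell. By the study's records each tumor and each control came from a different dog, and the spread given below is that between libraries.

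All 4 genes were far lower in the meningiomas than in the normal meninges, and for all 4 every meningioma library lay below every control in normalised counts. Over all 14345 genes tested this was so in 3.58%, a share that is given as background only, since the 4 genes had been picked for this difference. Libraries 2 and 12, the pair matched to the study's frozen tumors, had 2.88 and 1.49 FPKM of MYH11 and 3.39 and 6.73 of the ACTC entry. Their SYNPO2 was 3.34 and 0.121 FPKM, and their NOTCH3 was 8.99 and 9.03. By the study's records these tumors came from other breeds than the controls, and the part that fixation had in the difference was not tested. Mean FPKM was 11-fold lower for MYH11, 9.58-fold for the ACTC entry, 9.66-fold for SYNPO2 and 6.08-fold for NOTCH3.

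MYH11 had 76.5, 21.1 and 37.9 FPKM in control libraries 0, 1 and 2. In the 13 meningioma libraries it ran from 1.49 FPKM in library 12 over a median of 3.96 to 8.53 in library 7. The highest tumor was 2.48-fold below the lowest control. Myosin heavy chain transcript remained detectable in each tumor, with 90 to 285 fragments per library against 538 to 5538 in the controls. The means were 4.10 ± 1.67 FPKM (SD, n = 13) and 45.2 ± 28.4 FPKM (SD, n = 3), and edgeR's fit gave a log2 fold change of -3.45 (standard error 0.33). Without control library 0, which held the most MYH11, it was -2.84.

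The ACTC entry had 54.5, 15.0 and 34.1 FPKM in control libraries 0, 1 and 2. The meningiomas ran from 1.30 FPKM in library 0 over a median of 2.62 to 6.73 in library 12, which was also the library with the least MYH11. The groups did not overlap, with the lowest control 2.22-fold above the highest tumor. Its means were 3.60 ± 1.94 FPKM (SD, n = 13) against 34.5 ± 19.8 FPKM (SD, n = 3), with a log2 fold change of -3.26 (standard error 0.40). The tumor values came from 29 to 174 fragments, against 90 to 285 for MYH11, and the entry yields 0.378 times the scaled fragments of MYH11 at the same FPKM, as a shorter gene does.

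SYNPO2 had 18.8, 5.03 and 11.7 FPKM in control libraries 0, 1 and 2. It was the least abundant of the 4 in the tumors, from 0.121 FPKM in library 12 over a median of 0.805 to 3.34 in library 2. It also had the highest coefficient of variation between tumors, 80.3% against 40.6% for MYH11, 53.9% for the ACTC entry and 44.6% for NOTCH3. On log2(FPKM + 1) its SD was 0.56, against 0.46 for MYH11, 0.61 for the ACTC entry and 0.55 for NOTCH3. The lowest SYNPO2 value rests on 6 fragments, for which an exact Poisson interval of 95% is 2.2 to 13.1, covering counting error only. The means were 1.23 ± 0.985 FPKM (SD, n = 13) and 11.9 ± 6.88 FPKM (SD, n = 3). The lowest control was 1.51-fold above the highest tumor, the narrowest gap of the 4 genes.

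NOTCH3, the receptor, had 66.3, 41.3 and 85.6 FPKM in control libraries 0, 1 and 2. Tumor values ran from 5.12 FPKM in library 1 over a median of 8.99 to 19.2 in library 8. Libraries 8, 11 and 4 were the highest, with 19.2, 18 and 17.1 FPKM, followed by library 7 with 13.3, and the other 9 did not exceed 9.16. The means were 10.6 ± 4.72 FPKM (SD, n = 13) and 64.4 ± 22.2 FPKM (SD, n = 3), with a log2 fold change of -2.59 (standard error 0.32). The fitted decrease was smaller than that of each contractile gene. For SYNPO2, which had the highest coefficient of variation of them, the fit gave -3.27 on the log2 scale with a standard error of 0.54. On log2(FPKM + 1) the order turned for SYNPO2, with -2.48 against -2.54 for NOTCH3. Without control library 0 the fits were closer, at -2.84 (MYH11), -2.77 (ACTC), -2.77 (SYNPO2) and -2.57 (NOTCH3). Without libraries 2 and 12 the log2 fold changes were -3.34 for MYH11, -3.38 for the ACTC entry, -3.38 for SYNPO2 and -2.56 for NOTCH3.

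**Figure D1:**
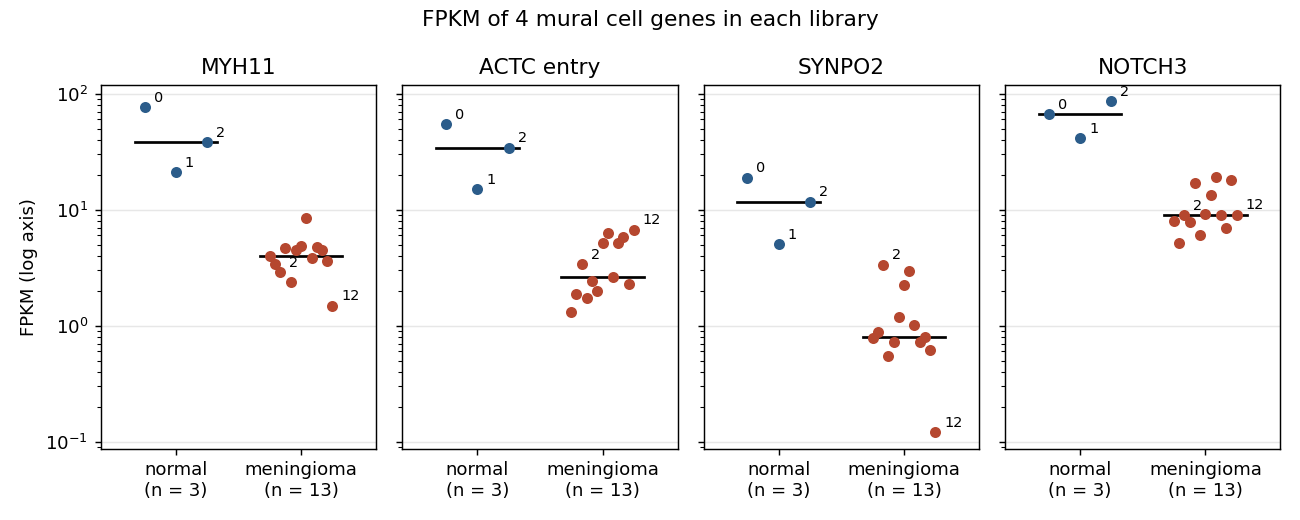
FPKM (log axis) of MYH11, the ACTC entry, SYNPO2 and NOTCH3 in each of the 3 normal and 13 meningioma libraries, with lines at the medians and numbers on the controls and on meningioma libraries 2 and 12. Every tumor point lies below every control point for each gene, and control 1 is the lowest control throughout.

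In the controls the contractile genes moved together. Library 0 held the most and library 1 the least of each of the 3, and the highest control exceeded the lowest 3.62-fold for MYH11, 3.64-fold for the ACTC entry and 3.73-fold for SYNPO2. Their proportions stayed nearly the same. For every 100 MYH11 fragments there were 26.9, 26.8 and 33.9 fragments of the ACTC entry and 17.8, 17.3 and 22.4 of SYNPO2 in libraries 0, 1 and 2. NOTCH3 did not follow that order. It was highest in library 2, spanned 2.07-fold, and had 53.4, 120.6 and 139.1 fragments per 100 of MYH11. With 3 controls no correlation was computed.

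In the tumors these proportions ranged more widely around a similar centre. With 13 tumors against 3 controls, and mostly fewer fragments in each tumor, a wider range alone does not show a difference between the groups. Per 100 MYH11 fragments, the ACTC entry had a median of 27.7 fragments (12.4 to 170.6), and SYNPO2 had a median of 18.5 (5.88 to 84.3). The highest values were those of the libraries that stood apart. Library 12 had 170.6 fragments of the ACTC entry per 100 of MYH11 (exact binomial 95% interval 132.8 to 220.0), and library 2 had 84.3 of SYNPO2 (63.0 to 112.4). Without these libraries the ranges were 12.4 to 49.5 and 8.55 to 33.5. In library 12 the lowest MYH11, the lowest SYNPO2 and the highest value of the ACTC entry among tumors came together, and it held 7287730 fragments in all. The actin entry relative to the normal mean stood at 19.5% in library 12, MYH11 at 3.30% and SYNPO2 at 1.02%.

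**Figure D2:**
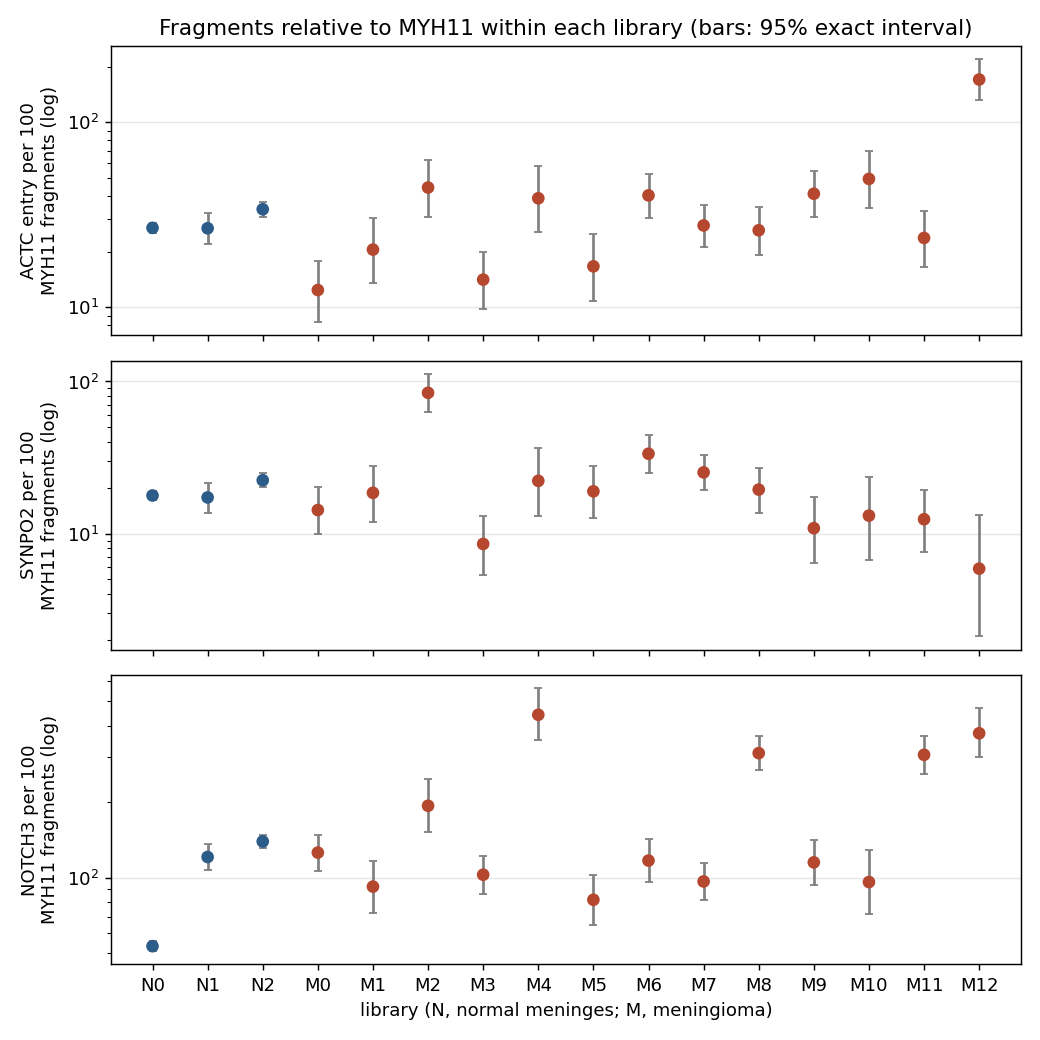
Fragments of the ACTC entry, SYNPO2 and NOTCH3 per 100 MYH11 fragments (log axes) in each library, with exact binomial 95% intervals that cover counting error only. The controls lie within 26.8 to 33.9 for the ACTC entry and 17.3 to 22.4 for SYNPO2, whereas library M12 reaches 170.6 for the actin and library M2 reaches 84.3 for SYNPO2.

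Set against NOTCH3, the contractile genes were lower in every tumor and, except for MYH11 in control library 0, in every control. In FPKM, which is per length, NOTCH3 was above MYH11, the ACTC entry and SYNPO2 in 13 of 13 meningioma libraries, and in the controls it was above MYH11 in 2 of 3 and above the other contractile genes in 3 of 3. The order of mean levels was NOTCH3, MYH11, the ACTC entry and SYNPO2 in both groups. Of neighbours in that order, MYH11 and the ACTC entry did not differ beyond their spread in the tumors, where MYH11 was the higher in 7 of 13. SYNPO2 lay below the ACTC entry in 13 of 13 tumors.

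The within-library log2 ratio, taken as the mean log2(FPKM + 1) of the 3 contractile genes minus that of NOTCH3, averaged -1.36 ± 0.64 in control libraries (SD, n = 3) and -1.63 ± 0.66 in tumor libraries (SD, n = 13). It ran from -2.73 to -0.96 in the tumors and from -1.74 to -0.61 in the controls, and the groups overlapped. The medians lay in the other order than the means, at -1.33 in the tumors and -1.72 in the controls. On this scale the difference of the means, -0.27, was smaller than the spread within either group. It turned to 0.10 without control library 0, in which MYH11 exceeded NOTCH3. With all libraries the difference was larger in size on log2(FPKM + 0.1), at -0.64, and on log2 CPM, at -0.66. Leaving out control library 0 was not repeated on those scales. In edgeR's fits without that control, given above, each contractile gene still fell further than NOTCH3. The lowest tumor ratios were -2.73, -2.71 and -2.62 in libraries 4, 11 and 8. These are the libraries with the most NOTCH3, and their MYH11 was 2.38, 3.62 and 3.80 FPKM, below the tumor median of 3.96. They had 442.2, 306.8 and 311.5 NOTCH3 fragments per 100 of MYH11, and library 12 had 373.5.

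**Figure D3:**
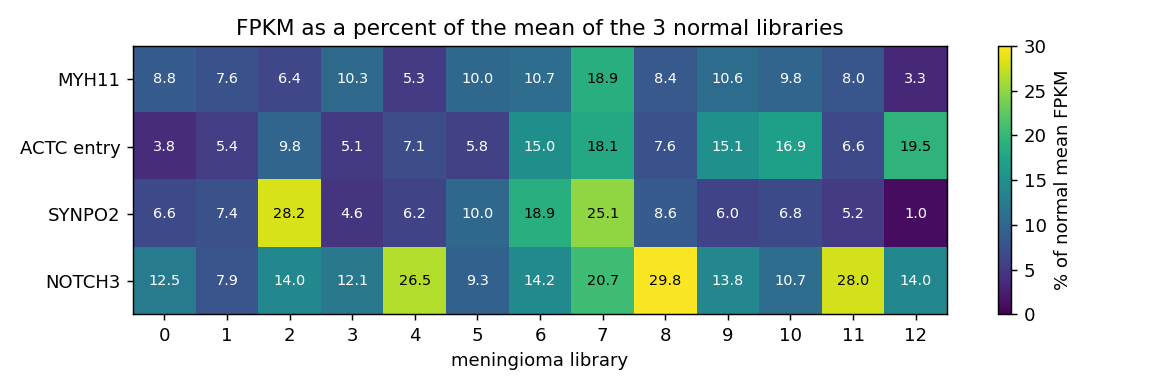
FPKM of each gene in each meningioma library as a percent of the mean of the 3 control libraries, in color and in numbers. NOTCH3 is highest in libraries 4, 8 and 11, SYNPO2 in libraries 2 and 7 and the ACTC entry in libraries 7 and 12, while MYH11 exceeds 11% only in library 7. Library 7 stands at 18.9% for MYH11, 18.1% for the ACTC entry, 25.1% for SYNPO2 and 20.7% for NOTCH3.

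How the genes varied with each other between tumors was not the measure that chose them, and this could be tested. The spread of each single gene can have entered the study's choice, which was by significance. Pearson's r and Spearman's rho on log2(FPKM + 1) were computed over the 13 meningioma libraries for the 6 pairs of genes and for each gene with the mean of 14 endothelial genes, 10 relations in all, with two-sided permutation tests and Benjamini-Hochberg adjustment. None of the 6 pairs passed. MYH11 and SYNPO2 had r = 0.51 (permutation p = 0.0749, adjusted p = 0.25) and rho = 0.30 (p = 0.324, adjusted p = 0.540). Among all tested genes, 6.11% had an r with MYH11 at least as high, and the median r of a tested gene with MYH11 was -5.33e-04. Without the 2 libraries farthest from the MYH11 median r fell to -0.15, so the value rested on those libraries. Without library 2 alone it passed, with r = 0.80 (permutation test, adjusted p = 0.0301).

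For the ACTC entry over all 13 tumors, r was 0.09 with MYH11 (permutation p = 0.774, adjusted p = 0.887, rho = 0.09, p = 0.777, adjusted p = 0.863) and 0.19 with SYNPO2 (permutation p = 0.523, adjusted p = 0.872, rho = 0.12, p = 0.694, adjusted p = 0.863). Without the 2 libraries farthest on the x axis these were 0.29 and 0.33. Without library 12 alone they were 0.52 and 0.50. Without libraries 2 and 12, over the other 11 tumors, r was 0.58 between MYH11 and the ACTC entry (permutation p = 0.0465, adjusted p = 0.0993), 0.71 between MYH11 and SYNPO2 (permutation p = 0.0169, adjusted p = 0.0562) and 0.57 between the ACTC entry and SYNPO2 (permutation p = 0.0620, adjusted p = 0.103). None of these passed after adjustment, and the ranks gave lower values, with rho of 0.45, 0.36 and 0.42. Library 7, the highest for MYH11, also weighed on them: leaving it out of the 13 gave r of -0.21, 0.29 and 0.00.

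NOTCH3 had an r near 0 with each contractile gene over the 13 tumors. It was -0.05 with MYH11 (permutation p = 0.885, adjusted p = 0.887, rho = -0.13, p = 0.682, adjusted p = 0.863), 0.06 with the ACTC entry (permutation p = 0.834, adjusted p = 0.887, rho = 0.32, p = 0.288, adjusted p = 0.540) and 0.04 with SYNPO2 (permutation p = 0.887, adjusted p = 0.887, rho = 0.00, p = 1.00, adjusted p = 1.00). Without the 2 libraries farthest on the x axis they were -0.42, -4.61e-03 and -0.07, and without libraries 2 and 12 they were -0.14, 0.10 and 0.07. A p that misses the threshold does not show that NOTCH3 varies independently of the contractile genes.

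**Figure D4:**
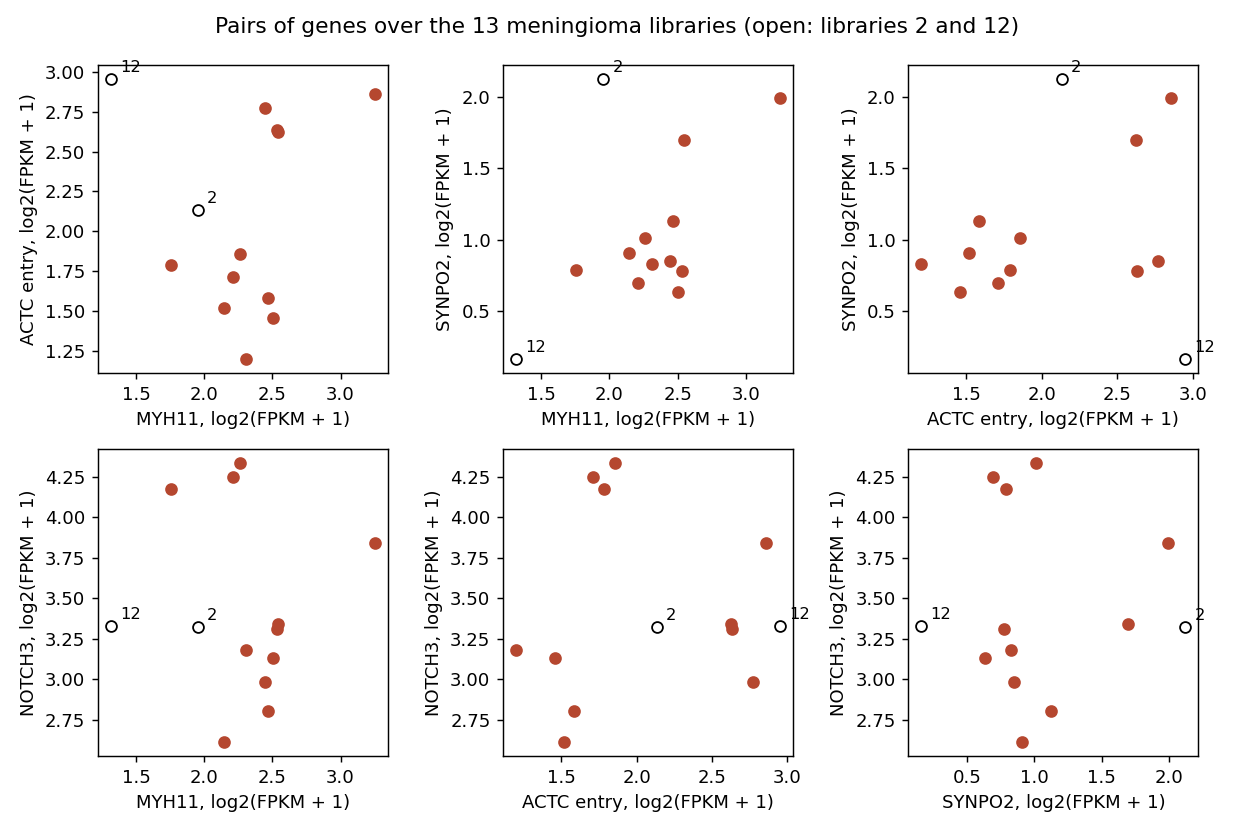
Values of log2(FPKM + 1) for the 6 pairs of genes over the 13 meningioma libraries, 1 point per library, with libraries 2 and 12 as open circles. Library 12 lies at the high end of the ACTC entry and the low end of MYH11 and SYNPO2, and the lower panels show no common trend of NOTCH3 with a contractile gene.

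Genes of endothelial cells, which line the same vessels, were lower in the same libraries and are given beside these values. The 14 genes of the endothelial list with an identifier summed to 561.5 to 927.1 FPKM in the controls and to 54.5 to 213.7 FPKM in the tumors, with 0 of the 14 listed at 0 in any library. The endothelial sum was highest in control library 2, as was NOTCH3, whereas the contractile genes were highest in control library 0. Over the tumors, SYNPO2 had an r of 0.78 with the endothelial mean (permutation p = 0.0021, adjusted p = 0.021), the only 1 of the 10 relations that passed over all 13 libraries. Its rho was 0.49 (p = 0.0877, adjusted p = 0.438). Without the 2 libraries farthest from the SYNPO2 median r was 0.59 (permutation p = 0.0647, adjusted p = 0.482), so that it no longer passed. It also failed to pass without library 6 (r = 0.75, adjusted p = 0.0742) or library 7 (r = 0.70, adjusted p = 0.112), and without libraries 2 and 12 (r = 0.78, adjusted p = 0.0562), in the same permutation test. For MYH11 r was 0.53 (permutation p = 0.0640, adjusted p = 0.25, rho = 0.53, p = 0.0638, adjusted p = 0.438), and 0.16 without the 2 farthest libraries. For the ACTC entry r was 0.42 (permutation p = 0.157, adjusted p = 0.392, rho = 0.41, p = 0.169, adjusted p = 0.540), and 0.45 without them. For NOTCH3 r was 0.22 (permutation p = 0.478, adjusted p = 0.872, rho = 0.33, p = 0.273, adjusted p = 0.540), and 0.45 without them. Library 7 had the highest endothelial sum and the highest MYH11, and library 1 had the lowest endothelial sum and the lowest NOTCH3. The other extremes lay in tumors with neither the highest nor the lowest sum. Library 12, with the lowest MYH11 and SYNPO2 and the highest ACTC entry, had a sum of 80.9 FPKM. The highest SYNPO2 was in library 2 (sum 167.0), the highest NOTCH3 in library 8 (123.8) and the lowest ACTC entry in library 0 (80.3). The part that vessel content had in the levels of the 4 genes was not tested.

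The genes whose ranks over the 13 tumors were most like those of each gene, among 123 others with a symbol, are named as a description. The symbols come from the study's own lists of genes that differed between these groups. For MYH11 they were ARAP3 (rho = 0.88), PREX2 (0.87) and FRZB (0.87), and 1 of all tested genes had a higher rho with MYH11 than ARAP3. For SYNPO2 they were SCN7A (0.87), CALCRL (0.83) and TLL1 (0.80), of which CALCRL codes for a receptor of vasodilator peptides. For the ACTC entry they were OLFML3 (0.77), TINAGL1 (0.74) and MMRN2 (0.57), the last with 318 tested genes above it. For NOTCH3 they were COL16A1 (0.68), FMOD (0.64) and PLVAP (0.64), with 58 tested genes above COL16A1. CALCRL, MMRN2 and PLVAP are among the 14 endothelial genes used above, and ARAP3 is also known from endothelium. The sets of 3 had no gene in common. Without libraries 2 and 12 the 12 values ran from 0.66 to 0.92.

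Other mural genes could be followed only where a symbol was paired with an identifier. Of the 24 symbols on a list named contractile smooth muscle 3 others had one, FHL5, DYSF and PTGIR. A place on that list does not make a gene part of the contractile machinery. All 3 were lower in the meningiomas by edgeR's quasi-likelihood test at an adjusted p under 0.05, as were 3.55% of all genes tested. Of 13 pericyte symbols 1 other had one, MCAM, which also passed as lower, and of 15 Notch pathway symbols none beside NOTCH3 had one. All 14 endothelial genes passed as lower. These genes, too, were on the study's list for this contrast, so the counts were fixed by that choice. FHL5, a cofactor that is found in smooth muscle, had 13.15 ± 3.30 FPKM (SD, n = 3) in the controls and 1.17 ± 0.812 FPKM (SD, n = 13) in the tumors. MCAM, an adhesion molecule of pericytes, smooth muscle and endothelium, had 78.5 ± 34.1 against 9.41 ± 6.71 FPKM. Of 8 fibroblast and meningeal genes with an identifier, 5 passed as lower and 1, PDPN, as higher, where 4.86% of all genes passed in either direction. APOD and CCDC80 did not pass, with log2 fold changes of -2.52 and -1.76. None of the 7 striated muscle, 5 neural and glial and 4 immune symbols had an identifier, so those cell types were not analysed here.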

How the data were processed

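Per the labels, cutadapt 1.8, TopHat2 2.0.13 and Cuffdiff 2.2.1 were used by the authors with canFam3. Per the file headers, Cuffdiff gave 3 values for each gene and library. The authors deposited estimated counts of fragments, a signal that is these fragments divided by 1 size factor per library, and FPKM. Of 393280 estimated counts, 1364 were not whole, and counts were rounded for fitting. Symbols came from the study's lists, with 124 identifiers.

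Genes that reached 10 fragments in 3 or more libraries were fitted with edgeR 4.0.16 (quasi-likelihood, TMM) in R 4.3.3, with Benjamini-Hochberg adjustment over all of them, in place of Cuffdiff. Correlations used 100000 permutations (numpy 2.4.6, scipy 1.17.1). The alternatives were DESeq2 1.42.0, limma 3.58.1, other size factors, filters and pseudocounts, and libraries left out. The members, lists and tests were chosen with earlier results of these data known. Named genes were the members, the fixed lists' genes with an identifier, and the 3 most alike by rank. Condition C was read as meningioma, as the group with 13 libraries, and N as normal. Deposited FPKM were compared with per-sample FPKM in the study's supplement to identify the frozen tumors. No group rests on that match. The pair left out of some tests is the matched pair, which also stood apart on the third principal component.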

Additional observations from a re-analysis of the deposited data

How the results depend on the processing

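No paired analysis was possible because the tumors and controls came from different dogs, which a shared number does not pair. Under other size factors, DESeq2 and both pseudocounts, the 4 log2 fold changes moved by less than 1 SD of log2 CPM between tumors, the most for SYNPO2 (-2.48 with log2(FPKM + 1), against an SD of 1.10 in log2 CPM and 0.56 in log2(FPKM + 1)). With each library left out they ran from -3.79 to -2.84 (MYH11), -3.61 to -2.77 (ACTC), -3.63 to -2.77 (SYNPO2) and -2.83 to -2.34 (NOTCH3). The contractile to NOTCH3 difference on log2(FPKM + 1) then ran from -0.46 to 0.10. With all libraries it was -0.64 on log2(FPKM + 0.1) and -0.66 on log2 CPM. The r of SYNPO2 with the endothelial mean lost its call without libraries 2 and 12 (0.78, adjusted p = 0.0562), with log2(FPKM + 0.1) (0.71, adjusted p = 0.0598), on log2 CPM (0.69, adjusted p = 0.0748) and without the 2 farthest libraries (0.59); with 1 library left out it ran from 0.70 to 0.85. Without the 2 farthest libraries r turned sign for MYH11 with SYNPO2 (-0.15), the ACTC entry with NOTCH3 (-4.61e-03) and SYNPO2 with NOTCH3 (-0.0746). With 1 library left out, r ran from -0.21 to 0.52 (MYH11 with ACTC), 0.29 to 0.80 (MYH11 with SYNPO2), -0.25 to 0.11 (MYH11 with NOTCH3), -1.50e-03 to 0.50 (ACTC with SYNPO2), -0.0703 to 0.17 (ACTC with NOTCH3) and -0.0832 to 0.14 (SYNPO2 with NOTCH3). Among all tested genes 697 were called, 1364 with DESeq2, and 169 to 931 with 1 library left out, of which 245, 350 and 169 without control library 0, 1 and 2. The causes were not tested. SYNPO2 had the fewest fragments, as few as 6, and is the gene most limited by depth.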
